A study of Mus musculus with 24 samples.

Results

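Sialic acids are acidic sugars that cap the outer ends of many glycans on cell-surface proteins and lipids. The 10 genes described here, of 21669 in the deposited count table, cover steps that build those caps: the sialyltransferases St6gal1, St3gal1, St3gal2, St3gal3, St3gal4, St3gal5, St3gal6 and St8sia4, and the sialic acid synthesis genes Cmas and Gne. They were taken by symbol, and all 10 were found and passed the filter on low counts in both cell lines. The members were chosen by name, in a family selected on earlier results of these libraries, and which values led to it is not recorded, so the adjusted p-values given with the members describe the fit and are not independent support.

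RNA was sequenced in 24 libraries of 2 mouse cell lines. RAW-Blue cells are macrophages of the RAW line that carry a secreted phosphatase reporter for NF-kB and AP-1, and K-Luc cells are KR158B glioma cells that express luciferase. Each line had 5 groups. SWNT/CpG cells received single-walled carbon nanotubes dispersed in the CpG-28 oligonucleotide, CpG cells the free oligonucleotide, CpG+SWNT/LP cells the free oligonucleotide plus nanotubes in lipid-PEG, SWNT/LP cells those nanotubes alone, and untreated cells water. Each ingredient was at 10 µg/mL. Treatment followed 24 h of adhesion and lasted 47 to 50 h in RAW-Blue and 17 to 19 h in K-Luc. RAW-Blue had 2 libraries in every group, and K-Luc had 3 in every treated group and 2 untreated. No group received an oligonucleotide without CpG. RAW-Blue cells were plated in the insert chambers alone, whereas K-Luc cells were also plated outside the insert. Separate cultures are not stated for the replicates. The p-values are therefore set against variation among libraries only, which may be technical.

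In the pathway, Gne makes the precursor of sialic acid and is its rate-limiting enzyme, and Cmas activates the finished sugar to CMP-sialic acid, the donor that every sialyltransferase uses. St6gal1 attaches sialic acid to galactose on N-glycans in the linkage that Siglec CD22 binds on B cells. The St3gal enzymes attach it in another linkage. St3gal1 and St3gal2 act mainly on O-glycans and gangliosides, St3gal3, St3gal4 and St3gal6 mainly on N-glycans and on chains that become sialyl Lewis X, the selectin ligand, and St3gal5 makes GM3, the parent of most gangliosides. St8sia4 is a polysialyltransferase that extends sialic acid chains on carriers such as NCAM and neuropilin-2. Macrophages read sialic acid on other cells and on themselves through Siglecs. The libraries measure mRNA of these enzymes, and no glycan was measured.

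Totals ran between 13318636 and 24130359 counts per library. The macrophage markers summed to between 1335 and 1653 RPKM in RAW-Blue libraries and to between 5 and 7.3 RPKM in K-Luc libraries, where 5 of 9 were at 0 throughout. Among the macrophage markers Mrc1 was at 0 in every RAW-Blue library. The glial markers summed to between 1 and 2.6 RPKM in RAW-Blue and to between 58.4 and 78 RPKM in K-Luc. Only 3 of the 8 glial markers were over 1 RPKM in every K-Luc library, and Olig2 was at 0 in all of them. Sox2 was the highest glial marker in untreated K-Luc cells, at 37.6 RPKM. Pdgfra, listed as a fibroblast and vessel marker, was at 8.15 RPKM there. The 2 untreated RAW-Blue libraries stood apart from each other: a chi-square of their counts, divided by its degrees of freedom, was 43.2, against 1.95 to 5.77 for the 4 other RAW-Blue pairs. In K-Luc, replicate 1 stood apart from the other 2 in each treated group, and replicate 1 of 3 groups (SWNT/CpG, CpG+SWNT/LP and untreated) is labelled as another sequencing run.

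In untreated cells the 2 lines held these mRNAs at different levels. The deposited RPKM, read counts scaled by transcript length and library size, allow genes to be compared within a line. In untreated RAW-Blue cells the order was Cmas at 35.9 RPKM, St3gal5 at 32.6, St3gal6 at 28.45, St8sia4 at 15.1, St3gal4 at 14.15, Gne at 5.9, St3gal3 at 5.65, St6gal1 at 4.55, St3gal2 at 4.5 and St3gal1 at 3.75 RPKM, each a mean of 2 libraries. The library ranges of St8sia4 and St3gal4 overlapped, as did those of Gne and St3gal3 and those of St6gal1 and St3gal2, so the order within each of these 3 pairs is not set. In untreated K-Luc cells St3gal5 led at 25.9 RPKM, followed by St3gal2 at 17.85, Cmas at 15.4, St3gal4 at 13.55, St3gal3 at 8.05, St6gal1 at 6.1, St3gal1 at 3.8, Gne at 2.1, St3gal6 at 1.7 and St8sia4 at 0.1 RPKM, and no neighbours overlapped. St8sia4, the polysialyltransferase, had 5 to 19 counts in each of the 14 K-Luc libraries.

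**Figure D1:**
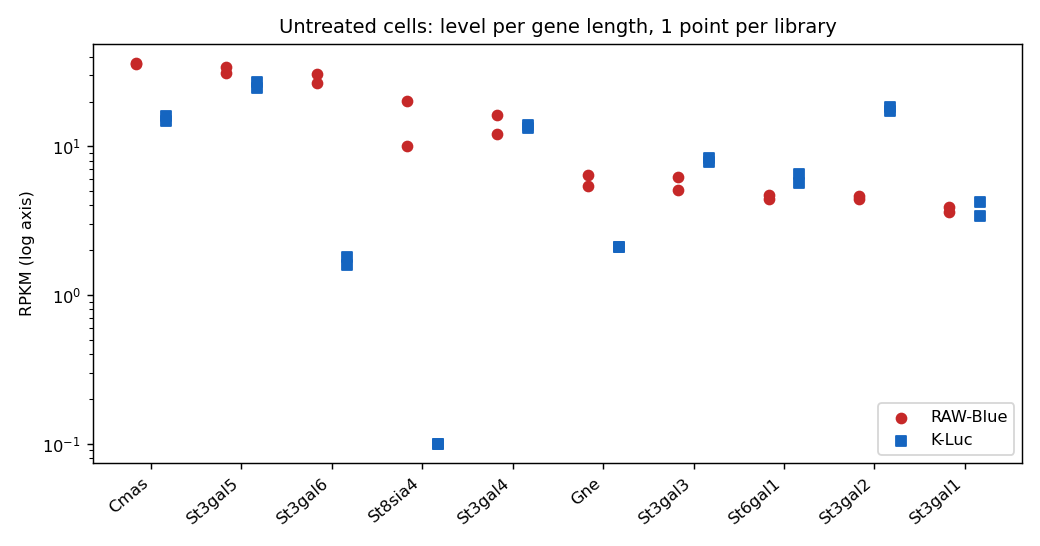
RPKM (log axis) of the 10 genes in untreated RAW-Blue libraries (red circles) and untreated K-Luc libraries (blue squares), 1 point per library, ordered by the RAW-Blue mean. St8sia4 lies at 10.1 and 20.1 RPKM in RAW-Blue and at 0.1 RPKM in both K-Luc libraries, and St3gal2 is the gene furthest above RAW-Blue in K-Luc.

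In the edgeR fit of both lines 7 of 10 members differed between untreated RAW-Blue and untreated K-Luc cells, beside 77.9% of all 13350 genes tested, so a difference between lines is the usual case. St8sia4 was higher in RAW-Blue by 8.51 ± 0.48 on the log2 scale (SE, edgeR adjusted p = 1.7e-11), St3gal6 by 4.22 ± 0.16 (2.5e-17), Gne by 1.60 ± 0.10 (1.28e-12), Cmas by 1.38 ± 0.07 (2.18e-14) and St3gal5 by 0.47 ± 0.07 (2.91e-06). St3gal2 was lower in RAW-Blue, with a log2 difference of -1.87 ± 0.08 (edgeR adjusted p = 6.61e-16), and so was St3gal3 at -0.38 ± 0.10 (0.00193). St6gal1, St3gal1 and St3gal4 did not pass the test, at -0.18 ± 0.12, 0.05 ± 0.08 and 0.21 ± 0.10. The lines also differed in treatment time and plating, which cannot be told apart from the line. With only the untreated libraries in the fit, the calls of St3gal5 and St3gal3 were lost.

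St6gal1 fell in RAW-Blue cells with every treatment, and its lowest values were with SWNT/CpG. Its normalised count was 4.57 and 3.45 CPM (counts scaled to library size) in the SWNT/CpG libraries, 6.53 and 6.54 CPM with CpG, 5.59 and 5.57 CPM with CpG+SWNT/LP, 20.1 and 20.8 CPM with SWNT/LP, and 32.5 and 35.3 CPM in untreated cells. No treated library reached the level of an untreated one, and the SWNT/LP libraries lay between the untreated libraries and the 3 groups that received the oligonucleotide. In bulk RNA, fewer cells that express a gene and less RNA per cell cannot be told apart. The SWNT/CpG values rest on 79 and 69 counts.

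**Figure D2:**
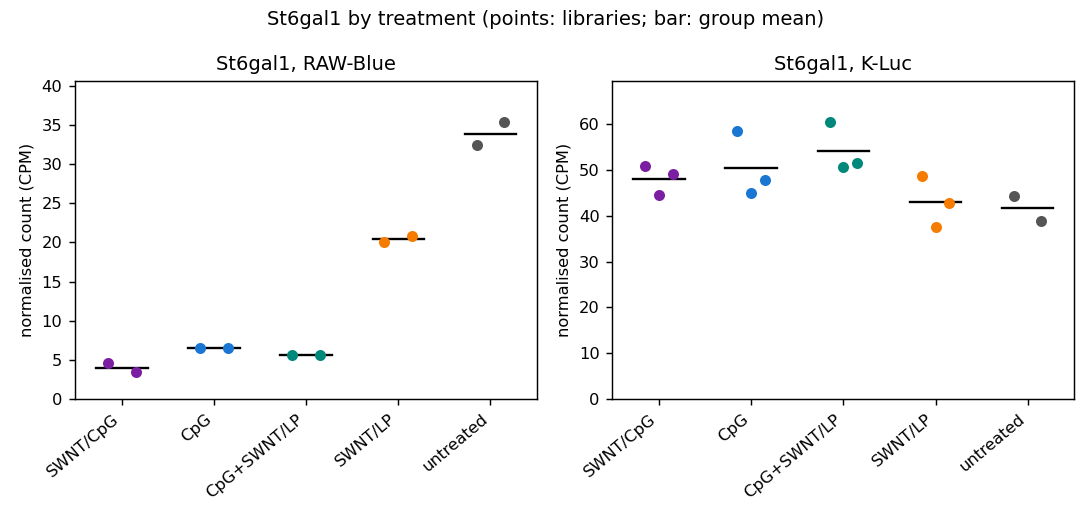
Normalised count (CPM, linear axis from 0) of St6gal1 in RAW-Blue (left) and K-Luc (right), with 1 point per library and a bar at each group mean. In RAW-Blue the 6 libraries given the oligonucleotide lie between 3.45 and 6.54 CPM and the untreated ones at 32.5 and 35.3 CPM. In K-Luc all libraries lie between 37.7 and 60.4 CPM.

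Against untreated cells, the log2 fold change of St6gal1 in RAW-Blue was -3.09 ± 0.13 with SWNT/CpG (SE, edgeR adjusted p = 1.18e-06), an 8.50-fold lower level. It was -2.37 ± 0.12 with CpG (5.41e-06) and -2.60 ± 0.13 with CpG+SWNT/LP (2.51e-06). These 3 falls held under all 15 alternatives tried, with ranges of -3.30 to -2.89, -2.43 to -2.31 and -2.66 to -2.54, so they do not turn on either of the unlike untreated libraries. With SWNT/LP the change was -0.73 ± 0.11 (edgeR adjusted p = 0.0243). That call was lost under 7 of 15 alternatives: with only the 2 compared groups in the fit (adjusted p = 0.304), and when any 1 library of SWNT/LP (0.272 and 0.325), CpG (0.0587 and 0.0585) or CpG+SWNT/LP (0.0616 and 0.0623) was left out, with fold changes of -0.79 to -0.67 throughout.

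St6gal1 lies on chromosome 16. Its exons overlap those of BC106179 on the opposite strand, which has no row in the count table. Whether reads of BC106179 entered the St6gal1 counts was not tested. For the 2 members of opposite direction in RAW-Blue, St6gal1 and St3gal6, promoter windows are shown beside these values because their levels moved apart under the same treatments. RefSeq's table for GRCm38.p6 held windows of 300 bases, 250 before and 50 after an annotated start, for 8 of the 10 members. Of 3 St6gal1 windows and 2 St3gal6 windows, those printed held a match to at least 1 of the 3 motifs searched on both strands: the NF-kB consensus, GGGCGG, the core of a GC box, and GAGGAA, a core of ETS factors. Capitals mark the matches, on either strand.
St6gal1, chr16:23224490-23224789, plus strand: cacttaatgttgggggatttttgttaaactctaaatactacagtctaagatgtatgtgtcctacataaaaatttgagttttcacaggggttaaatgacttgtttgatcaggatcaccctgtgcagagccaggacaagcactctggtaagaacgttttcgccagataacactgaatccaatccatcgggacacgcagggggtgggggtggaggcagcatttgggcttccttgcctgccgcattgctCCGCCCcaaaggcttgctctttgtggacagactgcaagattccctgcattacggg
St3gal6, chr16:58523377-58523676, minus strand: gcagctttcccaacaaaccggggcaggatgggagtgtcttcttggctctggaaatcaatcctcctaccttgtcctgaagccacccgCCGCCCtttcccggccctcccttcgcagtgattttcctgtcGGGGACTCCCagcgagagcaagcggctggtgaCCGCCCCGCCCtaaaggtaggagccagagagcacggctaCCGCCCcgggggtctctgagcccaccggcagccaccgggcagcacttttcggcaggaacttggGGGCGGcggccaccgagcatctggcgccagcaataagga
The St6gal1 window held 1 GGGCGG match. The St3gal6 window held 1 match to the NF-kB consensus and 5 to GGGCGG, of which 2 overlap. Of all 32851 windows in the table, 8.46% held the NF-kB consensus, 35.7% GGGCGG and 28.3% GAGGAA. A match is a description of letters, and the counts do not tell which start was in use.

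St3gal6, which was abundant in RAW-Blue and rare in K-Luc, moved the other way. It had 205 and 206 CPM in the SWNT/CpG libraries, 152 and 178 CPM with CpG, 142 and 183 CPM with CpG+SWNT/LP, 132 and 138 CPM with SWNT/LP, and 99.1 and 118 CPM in untreated RAW-Blue cells. Every treated library lay above both untreated ones. The log2 fold change against untreated was 0.92 ± 0.13 with SWNT/CpG (SE, edgeR adjusted p = 0.000879), 0.61 ± 0.13 with CpG (0.017) and 0.58 ± 0.13 with CpG+SWNT/LP (0.0121), and 0.32 ± 0.13 with SWNT/LP did not pass the test (0.358). The rise with SWNT/CpG held under all 15 alternatives, at 0.81 to 1.05. The call with CpG was lost without untreated replicate 1 (0.49, adjusted p = 0.0864), without CpG replicate 2 (0.49, 0.137) and with only the compared groups in the fit (0.61, 0.133). The call with CpG+SWNT/LP was lost without untreated replicate 1 (0.47, 0.0734), without CpG+SWNT/LP replicate 2 (0.38, 0.106) and with only the compared groups (0.59, 0.118). Exons of St3gal6 overlap those of Dcbld2 on the opposite strand, and the strand setting of the counting is not given. Whether reads of Dcbld2 entered the St3gal6 counts was not tested, and totals per gene cannot tell. Dcbld2 averaged 71.4 CPM with SWNT/CpG and 61.3 CPM in untreated RAW-Blue cells. In K-Luc Dcbld2 averaged 207 CPM with SWNT/CpG and 254 CPM untreated, while St3gal6 averaged 6.60 CPM with SWNT/CpG and 5.98 CPM untreated.

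Within each RAW-Blue library the balance of the pair can be read as St3gal6 counts per St6gal1 count, which needs no scaling between libraries. That ratio was 44.9 and 59.6 with SWNT/CpG, 23.3 and 27.3 with CpG, 25.4 and 32.8 with CpG+SWNT/LP, 6.57 and 6.62 with SWNT/LP, and 3.05 and 3.33 in untreated cells. Each treated group lay above the untreated libraries, and the SWNT/CpG libraries lay above all the others. The pair was taken because its members moved apart in these libraries, so the ratio restates their values and is not further support. Between SWNT/CpG and CpG or CpG+SWNT/LP neither gene passed the edgeR test. In the 14 K-Luc libraries the ratio stayed between 0.109 and 0.165.

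Of the other St3gal members, St3gal5, the GM3 synthase, rose in RAW-Blue with SWNT/CpG. It had 166 and 156 CPM in SWNT/CpG cells, against 132 and 126 CPM in untreated cells, without overlap, and its log2 fold change was 0.32 ± 0.07 (SE, edgeR adjusted p = 0.00812). The call was lost without SWNT/CpG replicate 1 (0.27, adjusted p = 0.0945) and with only the compared groups (0.30, 0.181). With CpG, CpG+SWNT/LP and SWNT/LP its fold changes of 0.13, 0.15 and 0.03 did not pass. St3gal4 had 59.5 and 57.8 CPM with SWNT/CpG and 52.3 and 40.4 CPM untreated, a log2 fold change of 0.34 ± 0.11 that did not pass (edgeR adjusted p = 0.0568). Its exons overlap those of 4930581F22Rik on the opposite strand, which averaged 6.57 CPM with SWNT/CpG and 3.33 CPM untreated in RAW-Blue. St3gal1, St3gal2 and St3gal3 did not pass in any of the 4 comparisons with untreated RAW-Blue cells, with log2 fold changes of -0.15 to 0.14, -0.01 to 0.20 and -0.24 to -0.15. Without untreated replicate 1 St3gal4 was higher with SWNT/CpG (0.54), CpG (0.44) and CpG+SWNT/LP (0.48). Without untreated replicate 2 St3gal3 was lower with CpG (-0.34), CpG+SWNT/LP (-0.34) and SWNT/LP (-0.36), and St3gal2 was higher with CpG+SWNT/LP (0.25). These changes passed, as did St3gal5 with CpG+SWNT/LP without untreated replicate 1. Each such fit kept 1 untreated library, so the variation of untreated cells was not measured in it.

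Gne, the rate-limiting enzyme of synthesis, had 42.6 and 46.9 CPM in SWNT/CpG cells and 58.4 and 50.8 CPM in untreated RAW-Blue cells. The groups did not overlap, and Gne fell by 0.29 ± 0.09 on the log2 scale (SE, edgeR adjusted p = 0.0457), a call near the threshold. It was lost under 12 of 15 alternatives, DESeq2 among them: it held with untreated replicate 2 left out and was lost when any 1 other library was left out, with adjusted p-values up to 0.265. Without untreated replicate 2 Gne was also lower with CpG (-0.26), CpG+SWNT/LP (-0.33) and SWNT/LP (-0.26). That fit kept 1 untreated library, so the variation of untreated cells was not measured in it. Cmas, the activating enzyme, had 110 and 118 CPM with SWNT/CpG and 102 and 103 CPM untreated, a log2 fold change of 0.16 ± 0.07 that did not pass (edgeR adjusted p = 0.136).

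St8sia4 gave no direction in RAW-Blue, where its 2 untreated libraries lay on either side of the treated ones. It had 186 and 175 CPM with SWNT/CpG, 206 and 195 CPM with CpG, 211 and 183 CPM with CpG+SWNT/LP, 228 and 211 CPM with SWNT/LP, and 133 and 272 CPM untreated. Every treated library lay between the 2 untreated ones. With all libraries its log2 fold changes ran from -0.17 to 0.11 over the 4 treatments, none past the test. Without untreated replicate 1 it passed as lower in each treatment, at -0.60 with SWNT/CpG, -0.44 with CpG, -0.47 with CpG+SWNT/LP and -0.32 with SWNT/LP. Without untreated replicate 2 it passed as higher in each, at 0.44, 0.59, 0.57 and 0.72 in the same order.

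**Figure D3:**
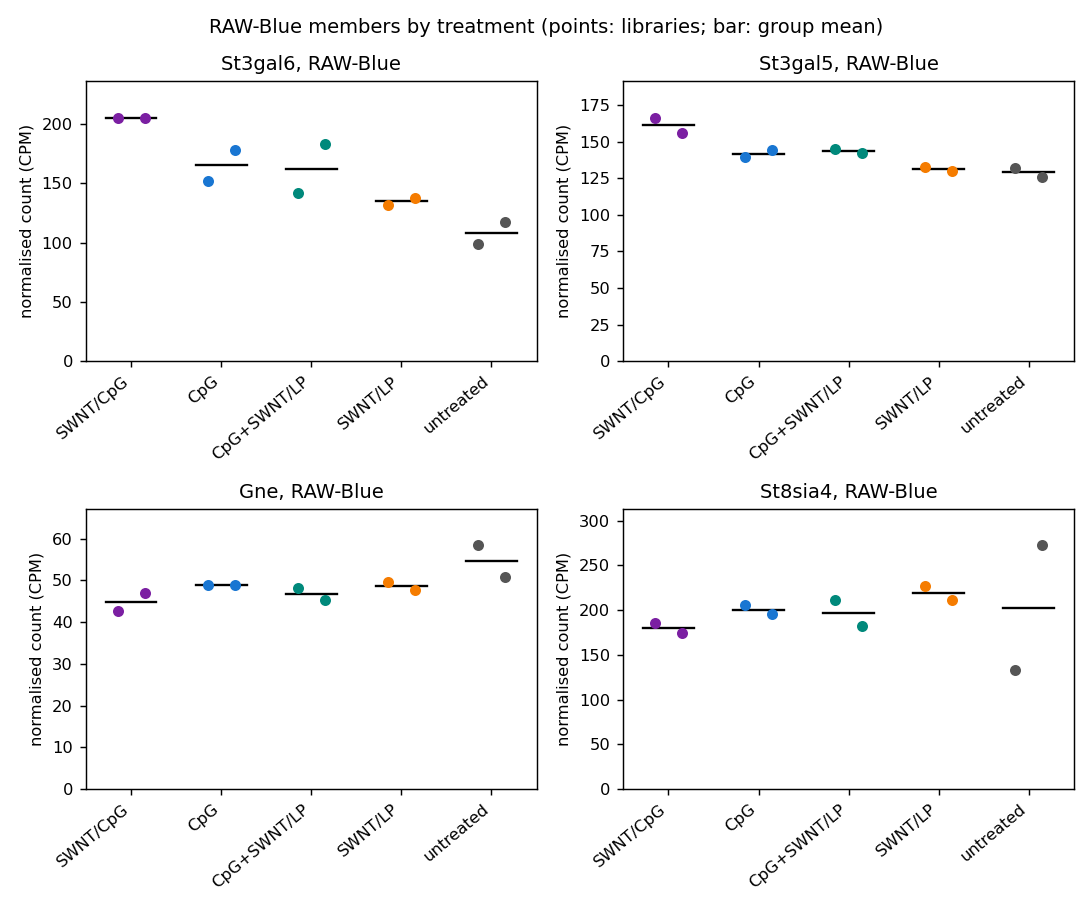
Normalised count (CPM, linear axes from 0) of St3gal6, St3gal5, Gne and St8sia4 in RAW-Blue libraries, with 1 point per library and a bar at each group mean. St3gal6 lies at 205 and 206 CPM with SWNT/CpG and at 99.1 and 118 CPM untreated, and the 2 untreated points of St8sia4, at 133 and 272 CPM, lie below and above all others.

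In all, 4 of 10 members passed with SWNT/CpG against untreated RAW-Blue cells, beside 23.2% of all 11514 genes tested. With CpG 2 of 10 passed, beside 10.8%, with CpG+SWNT/LP 2 of 10, beside 20.3%, and with SWNT/LP 1 of 10, beside 0.478%. The median log2 fold change of the members was -0.04, -0.01, 0.06 and 0.10 in that order, and that of all genes tested was under 0.01 in size in each. These counts changed when either untreated library was left out, which keeps 1 untreated library and gives no measure of the variation of untreated cells. Without untreated replicate 2, 5951 genes and 5 members passed with SWNT/CpG, 5186 and 5 with CpG, 5500 and 6 with CpG+SWNT/LP, and 4207 and 4 with SWNT/LP. Without untreated replicate 1 more members passed with every treatment, and more of all genes passed with CpG, CpG+SWNT/LP and SWNT/LP. The comparisons share their untreated libraries, so their counts are not independent of each other.

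**Figure D4:**
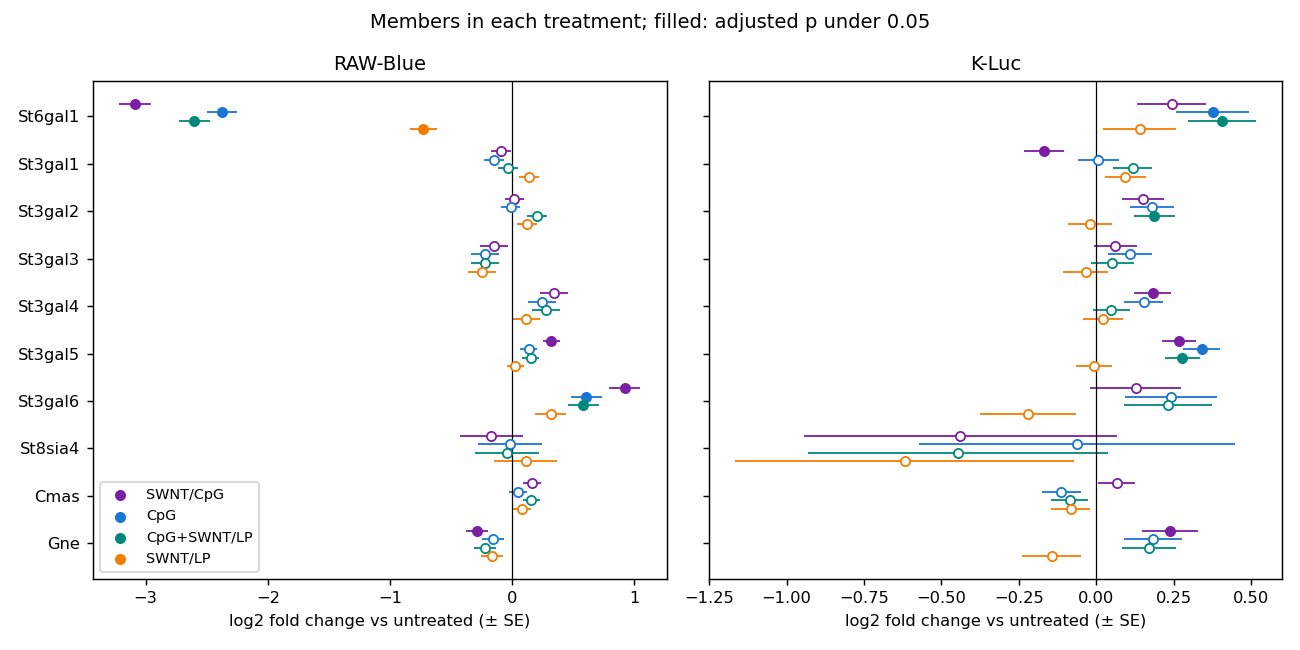
Log2 fold change against untreated cells of the 10 members (rows) in RAW-Blue (left) and K-Luc (right), with bars of 1 SE, colours for the 4 treatments and filled points where the edgeR adjusted p was under 0.05. The horizontal scales of the panels differ. St6gal1 lies at -3.09 with SWNT/CpG in RAW-Blue and at 0.24 in K-Luc.

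Between treatments, none of the 10 members passed in RAW-Blue when SWNT/CpG was set against CpG+SWNT/LP (0.825% of all genes passed) or against CpG (0.842%), or when CpG+SWNT/LP was set against CpG (0.13%). The spread in these tests is taken over all RAW-Blue groups, the unlike untreated pair included. With only the compared groups in the fit, 832, 923 and 176 of all genes passed in that order, against 95, 97 and 15. In that setting 2 members passed between SWNT/CpG and CpG. At an unadjusted p under 0.05 the edgeR fit of all groups gave 4, 3 and 1 members. The share of all genes at that threshold was not counted, so these counts show no excess or lack. DESeq2 called 0, 1 and 0 members, beside 245, 245 and 47 of all genes. The member that DESeq2 called is St6gal1, whose log2 difference between SWNT/CpG and CpG was -0.71 ± 0.15 (SE, edgeR adjusted p = 0.0658). It passed under 5 of 15 alternatives, DESeq2 (0.0356), no filter on low counts (0.0243), only the compared groups (0.0274) and without either untreated library (0.00848 and 0.00819). Against CpG+SWNT/LP its difference was -0.49 ± 0.15 (0.184). The log2 difference of St3gal6 was 0.34 ± 0.13 between SWNT/CpG and CpG+SWNT/LP (0.272) and 0.31 ± 0.13 between SWNT/CpG and CpG (0.335). With either untreated library left out in turn, St3gal5 passed as higher with SWNT/CpG than with CpG and than with CpG+SWNT/LP. These tests leave differences of about that size unresolved.

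In K-Luc cells the changes against untreated that passed lay between -0.17 and 0.41 on the log2 scale. St3gal5 rose in each group given the oligonucleotide, with 110, 113 and 116 CPM in SWNT/CpG cells, 117, 119 and 123 CPM with CpG, 111, 114 and 118 CPM with CpG+SWNT/LP, 93.6, 89.7 and 98.7 CPM with SWNT/LP, and 98.6 and 90.1 CPM untreated. The 9 libraries given the oligonucleotide lay above the 5 others. Its log2 fold change against untreated was 0.27 ± 0.06 with SWNT/CpG (SE, edgeR adjusted p = 0.00115), 0.34 ± 0.06 with CpG (0.000426) and 0.28 ± 0.06 with CpG+SWNT/LP (0.00133), and -0.01 ± 0.06 with SWNT/LP (0.992). Without untreated replicate 2 the 3 calls were lost, at 0.16 (adjusted p = 0.128), 0.21 (0.0902) and 0.17 (0.138).

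St6gal1 rose in K-Luc with CpG and with CpG+SWNT/LP. It had 50.9, 44.5 and 49.1 CPM with SWNT/CpG, 58.6, 45.1 and 47.9 CPM with CpG, 60.4, 50.6 and 51.5 CPM with CpG+SWNT/LP, 48.6, 37.7 and 42.9 CPM with SWNT/LP, and 44.4 and 38.9 CPM untreated. The SWNT/LP libraries overlapped the untreated ones and also those with SWNT/CpG and with CpG. Every library of the 3 groups given the oligonucleotide lay above both untreated ones. SWNT/CpG replicate 2 did so narrowly, at 44.47 CPM against 44.45 CPM in untreated replicate 1. The log2 fold change was 0.38 ± 0.12 with CpG (SE, edgeR adjusted p = 0.021) and 0.41 ± 0.11 with CpG+SWNT/LP (0.0105), while 0.24 ± 0.11 with SWNT/CpG (0.0929) and 0.14 ± 0.12 with SWNT/LP (0.964) did not pass. Replicate 1 was the highest library in every group, the untreated group included. The call with CpG was lost without untreated replicate 1 (0.38, adjusted p = 0.0708), untreated replicate 2 (0.37, 0.212) or CpG replicate 1 (0.25, 0.0631), and the call with CpG+SWNT/LP was lost without untreated replicate 1 (0.0701), untreated replicate 2 (0.135) or CpG+SWNT/LP replicate 1 (0.0642). Within the second run alone neither passed, at 0.37 with CpG (0.0878) and 0.39 with CpG+SWNT/LP (0.117). With SWNT/CpG it passed without CpG replicate 1 (0.24, 0.0299).

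With SWNT/CpG 4 of 10 members passed in K-Luc, beside 43.1% of all 12420 genes tested, and DESeq2 called 1. The 43.1% is the edgeR share, and that of DESeq2 is not given here. The edgeR calls besides St3gal5 were St3gal4 at 0.18 ± 0.06 (SE, edgeR adjusted p = 0.023), Gne at 0.24 ± 0.09 (0.0417) and St3gal1 at -0.17 ± 0.06 (0.0439). The call of St3gal4 was lost without either untreated library or SWNT/CpG replicates 1 or 2 (adjusted p up to 0.194). That of Gne was lost without untreated replicate 2, CpG+SWNT/LP replicate 2 or any SWNT/CpG library (up to 0.485), and that of St3gal1 without untreated replicate 2, CpG+SWNT/LP replicates 2 or 3 or any SWNT/CpG library (up to 0.778). With CpG 2 of 10 passed, beside 36.2%, and with CpG+SWNT/LP 3 of 10, beside 33.9%, the third being St3gal2, which acts on O-glycans and gangliosides, at 0.19 ± 0.07 (0.0372). Its call was lost without untreated replicate 2, any CpG+SWNT/LP library, SWNT/LP replicate 3 or SWNT/CpG replicate 2 (up to 0.68). With SWNT/LP none of 10 passed, beside 0.129%, with 0 at an unadjusted p under 0.05 in edgeR and 0 in DESeq2. These counts rested on untreated replicate 2. Without it 1 untreated library remained, and fewer members and fewer of all genes passed in each of the 3 comparisons with the oligonucleotide.

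St3gal1, which caps O-glycans, was lower with SWNT/CpG, at 43.9, 45.4 and 47.6 CPM, than with CpG+SWNT/LP, at 53.0, 56.3 and 57.2 CPM. The groups did not overlap, the log2 difference was -0.29 ± 0.06 (SE, edgeR adjusted p = 0.00174), and it held under all 21 alternatives, at -0.31 to -0.25. It was the 1 member of 10 that passed there, beside 17.7% of all genes. Against CpG, at 52.8, 50.8 and 55.9 CPM, the difference of -0.17 ± 0.06 did not pass (0.0527) and passed under 6 of 21 alternatives. Cmas was the 1 member that passed between SWNT/CpG, at 41.2, 42.5 and 41.9 CPM, and CpG, at 37.7, 35.2 and 37.7 CPM, beside 14.9% of all genes. Its difference of 0.18 ± 0.05 (edgeR adjusted p = 0.0335) was lost under 8 of 21 alternatives, DESeq2 and the omission of CpG replicates 2 or 3, SWNT/CpG replicates 2 or 3, or CpG+SWNT/LP replicate 1 among them, with adjusted p-values up to 0.153. Between CpG+SWNT/LP and CpG none of 10 passed, beside 0.266%, with 0 at an unadjusted p under 0.05 and 0 in DESeq2.

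The difference in response between the lines was tested in 1 fit of all 24 libraries. For SWNT/CpG against untreated, 3 of 10 members responded differently in RAW-Blue than in K-Luc, beside 25.4% of 13350 genes. The response of St6gal1 in RAW-Blue minus that in K-Luc was -3.33 ± 0.19 on the log2 scale (SE, edgeR adjusted p = 2.3e-11), that of St3gal6 was 0.80 ± 0.20 (0.00498) and that of Gne was -0.52 ± 0.13 (0.00481). For CpG against untreated only St6gal1 passed, at -2.77 ± 0.18 (8.61e-10), beside 21.9%, and DESeq2 called 4. The 21.9% is the edgeR share of all genes, and that of DESeq2 is not given here. The St6gal1 differences held under all 31 alternatives, at -3.56 to -3.15 and -2.84 to -2.65. Those of St3gal6 and Gne were lost without K-Luc untreated replicate 2, at 0.52 (adjusted p = 0.244) and -0.45 (0.0842). Exposure lasted longer in RAW-Blue, which cannot be told apart from the line.

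The rest of the pathway was described by 7 lists, with 58 further genes in the table. In RAW-Blue, with SWNT/CpG against untreated, 9 of 37 tested were higher and 10 lower, beside 12.8% and 10.4% of all genes. In K-Luc 16 of 37 were higher and 1 lower, beside 21.8% and 21.3%. The same shares of all genes stand beside the counts of each list that follow. With SWNT/LP none passed in either line, beside 0.478% of all genes in RAW-Blue and 0.129% in K-Luc. At an unadjusted p under 0.05 edgeR gave 6 in RAW-Blue and 3 in K-Luc, and DESeq2 called 0 in each. The share of all genes at that unadjusted threshold was not counted. Leaving out RAW-Blue untreated replicate 2 left 1 untreated library. Genes of some lists then passed with SWNT/LP in RAW-Blue, as did far more of all genes, so the calls are not particular to the lists.

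Among Siglecs, the receptors that read sialic acid, 2 of 6 tested were higher and 2 lower in RAW-Blue with SWNT/CpG. Beside them, 12.8% of all genes were higher and 10.4% lower. Siglec1, the sialoadhesin of macrophages, had 32.1 and 30.9 CPM in SWNT/CpG cells, against 7.87 and 8 CPM in untreated cells, a log2 fold change of 1.99 ± 0.17 (SE, edgeR adjusted p = 5.13e-05). Siglece, an inhibitory Siglec of mouse myeloid cells, had 8.32 and 7.90 CPM with SWNT/CpG and 4.34 and 3.47 CPM untreated, at 1.06 ± 0.17 (0.00157). Siglech had 0 counts in both SWNT/CpG libraries, against 20 and 23 counts in the untreated ones, and averaged 0.08 CPM with CpG. A gene tested with 0 counts in SWNT/CpG can only be lower there, so its call is a description. Cd33, named after its values were seen, had 70.1 and 57 CPM with SWNT/CpG and 104 and 140 CPM untreated, at -0.94 ± 0.15 (0.00191). In K-Luc 2 of 9 Siglecs in the table were tested and neither passed, with 0 at an unadjusted p under 0.05 and 0 in DESeq2.

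In the ganglioside pathway, which St3gal5 feeds, 2 of 10 were higher and 4 lower in RAW-Blue and 5 were higher and 0 lower in K-Luc, with SWNT/CpG against untreated. Ugcg, the glucosylceramide synthase that starts the pathway, had 112 and 103 CPM with SWNT/CpG in RAW-Blue and 47.8 and 64.4 CPM untreated, at 0.94 ± 0.12 (SE, edgeR adjusted p = 0.000468). Gm2a, the GM2 activator protein, was lower in RAW-Blue by the same test, at -0.72 ± 0.08 (0.000176). In K-Luc Gm2a rose by 0.60 ± 0.10 (0.000155) and B4galnt1, which extends GM3 to GM2, by 1.21 ± 0.24 (0.000636). The responses of the 2 lines to SWNT/CpG differed for Gm2a by -1.32 ± 0.13 (edgeR adjusted p = 1.27e-07), for B4galnt1 by -1.68 ± 0.26 (3.67e-05) and for Ugcg by 0.82 ± 0.11 (1.08e-05), each RAW-Blue minus K-Luc. The K-Luc call of B4galnt1 was lost without untreated replicate 2.

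Among genes of supply and removal, Slc35a1, which carries CMP-sialic acid into the Golgi, had 22.8 and 24.6 CPM with SWNT/CpG in RAW-Blue and 14.3 and 16.5 CPM untreated, at 0.62 ± 0.11 (SE, edgeR adjusted p = 0.00359). It was the 1 of 3 tested that passed there. Renbp, which converts precursor sugars, was the 1 of 4 that passed in K-Luc, at 0.52 ± 0.12 (0.00393), and was lost without untreated replicate 2. Neu1, the lysosomal sialidase, rose in RAW-Blue by 0.31 ± 0.09 (0.0377) and in K-Luc by 0.93 ± 0.17 (0.000959), and the difference between the lines was -0.63 ± 0.21 (0.036). Ctsa, its protective protein, fell in RAW-Blue by 0.30 ± 0.08 (0.0232) and rose in K-Luc by 0.46 ± 0.07 (9.13e-05). Siae, which removes acetyl groups from sialic acid, fell in RAW-Blue by 0.30 ± 0.09 (0.0338). These 3 RAW-Blue calls were lost under 9, 5 and 11 of 15 alternatives, including the omission of either SWNT/CpG library. In all, 1 of 6 tested removal genes was higher and 2 lower in RAW-Blue, and 2 of 6 were higher and 0 lower in K-Luc.

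Of 12 other sialyltransferases, 2 were tested in RAW-Blue and 3 in K-Luc. St6galnac6 was lower in RAW-Blue, with 38.9 and 41.6 CPM in SWNT/CpG cells and 60.0 and 52.5 CPM in untreated cells, at -0.48 ± 0.09 (SE, edgeR adjusted p = 0.00379). In K-Luc St6galnac4 had 64.3, 62.7 and 67.3 CPM with SWNT/CpG and 43.4 and 41.4 CPM untreated, at 0.61 ± 0.06 (8.48e-07), and St6galnac2 rose by 0.75 ± 0.20 (0.00553), a call lost without untreated replicate 2. St6galnac enzymes add sialic acid to O-glycans or gangliosides. Of the acceptor genes, B4galt1, the main enzyme that adds the galactose on which St6gal1 acts, had 131 and 127 CPM with SWNT/CpG in RAW-Blue and 204 and 175 CPM untreated, at -0.55 ± 0.08 (0.00117), and rose in K-Luc by 0.30 ± 0.06 (0.000516). The lines differed in this response by -0.86 ± 0.10 (edgeR adjusted p = 2.28e-06). In that list 2 of 9 were higher and 1 lower in RAW-Blue, the 2 being B4galt3 at 0.33 ± 0.09 (0.0295) and C1galt1 at 0.36 ± 0.11 (0.0464), and 5 of 10 were higher and 1 lower in K-Luc, among them B4galt3 at 0.41 ± 0.09 (0.0017) and Mgat5 at 0.32 ± 0.07 (0.00151). The RAW-Blue calls of B4galt3 and C1galt1 were lost without either SWNT/CpG library, and that of Mgat5 without K-Luc untreated replicate 2. Nrp2, the carrier of polysialic acid on myeloid cells, rose in RAW-Blue by 0.28 ± 0.07 (0.0167) and in K-Luc by 0.71 ± 0.06 (1.35e-07), and the RAW-Blue call was lost without either SWNT/CpG library.

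**Figure D5:**
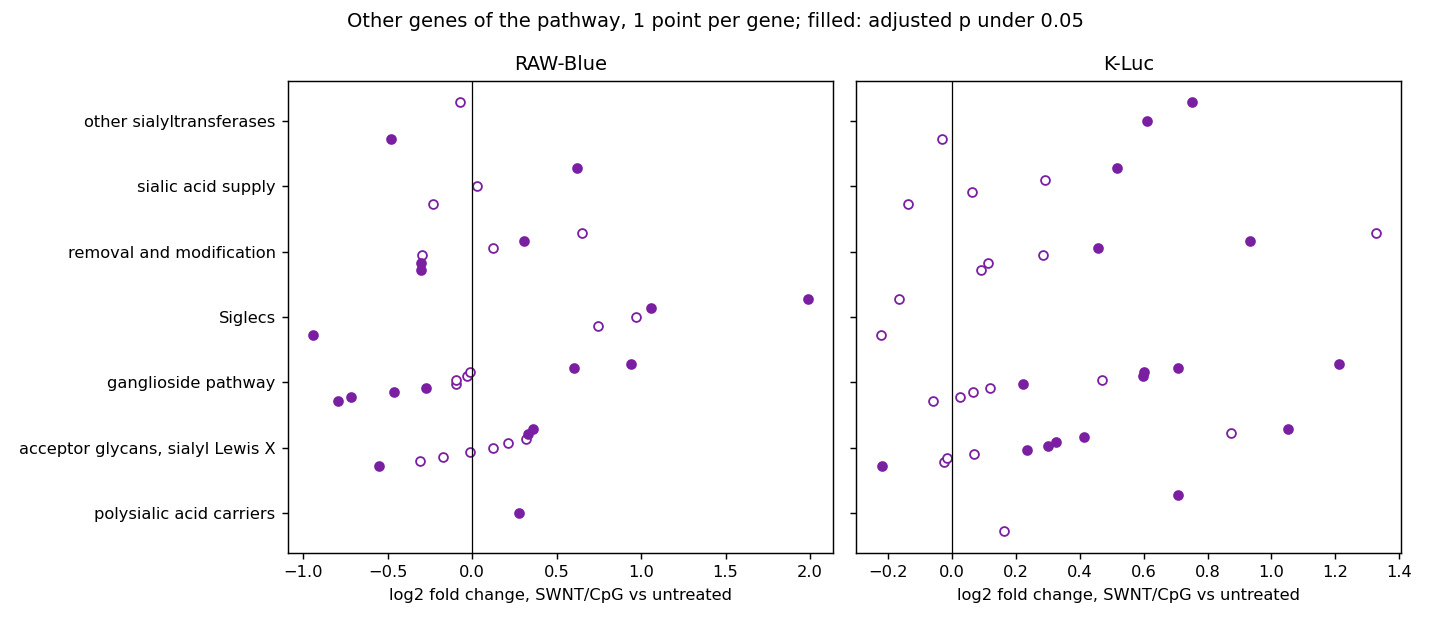
Log2 fold change of SWNT/CpG against untreated for the tested genes of the 7 lists (rows) in RAW-Blue (left) and K-Luc (right), 1 point per gene, filled where the edgeR adjusted p was under 0.05. The horizontal scales differ, and Siglech, at 0 counts with SWNT/CpG in RAW-Blue, is left out. Filled points lie on both sides of 0 in RAW-Blue, and in K-Luc all but 1 lie above it.

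Among the 5 genes whose normalised counts followed those of St6gal1 most closely over the 10 RAW-Blue libraries were Cbfa2t3, a transcriptional corepressor (Pearson r = 0.996 of log2 CPM), Arsb, a lysosomal sulfatase (0.989), Sort1, a sorting receptor (0.988), and Gpr183, an oxysterol receptor (0.986). The points share treatments and libraries, and r is a description. With SWNT/CpG against untreated cells Cbfa2t3 fell by 2.60 ± 0.16 on the log2 scale (SE, edgeR adjusted p = 8.07e-06), and Gpr183 by 1.32 ± 0.07 (4.28e-06). In K-Luc the closest to St3gal5 over 14 libraries were Kctd10 (r = 0.965), Gpr108 (0.961), Speg (0.960), Csrp1 (0.960) and Tmem231 (0.958), with log2 fold changes of 0.18 to 0.48 with SWNT/CpG.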

How the data were processed

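PolyA RNA of 24 libraries was prepared with a stranded kit, per the labels' protocols. The authors deposited read counts per gene and RPKM values, with RPKM rounded to 1 decimal. TopHat2 2.0.14, HTSeq 0.6.0 and mm9 are named in the submitters' processing notes. The sources used here do not give the annotation or strand setting of the counting. A level of 1 CPM corresponds to between 13.3 and 24.1 counts per library, which limits the precision of low genes.

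From the deposited counts, edgeR 4.0.16 (R 4.3.3) was run with its quasi-likelihood test, TMM scaling, and filterByExpr with a minimum count of 10 and a minimum total of 15. Each line was fitted over all its groups, K-Luc with the sequencing run as a term, and the lines were compared in 1 fit of 24 libraries. Benjamini-Hochberg adjustment ran over all genes tested, and a gene was called at an adjusted p under 0.05. The SE is the absolute log2 fold change divided by the square root of F. The fits were tested on simulated data. Across genes RPKM were used, and CPM within a line. Replicate numbers did not meet the rule for a pairing, so no block was used.

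All 10 members are named. Of 7 pathway lists, up to 3 called genes per list and line with the smallest adjusted p for SWNT/CpG against untreated are named, and the 5 genes most like a member by Pearson r, except 2 genes that are not reported here. Members and lists were chosen with earlier results of these data known. The alternatives were DESeq2 1.42.0, its size factors, no filter, a replicate block, only the compared groups, no run term, the second run alone and each library left out.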

Additional observations from a re-analysis of the deposited data

Results flagged for a closer look

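The response to SWNT/CpG differed between the lines by a test of the difference itself for 3 members. RAW-Blue minus K-Luc, it was -3.33 on the log2 scale for St6gal1 (edgeR adjusted p = 2.3e-11), 0.80 for St3gal6 (0.00498) and -0.52 for Gne (0.00481). The response to CpG differed for St6gal1, at -2.77 (8.61e-10). The 2 lines also differ in exposure time and plating, which cannot be told apart from the line.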

How the results depend on the processing

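Of 3449 values of the members under alternative settings, 3286 kept direction and side of the threshold, 81 lost a call, 78 gained one and 4 reversed. Of 31 calls among 170 results, 12 held under every alternative tried: the RAW-Blue falls of St6gal1 with SWNT/CpG, CpG and CpG+SWNT/LP, the RAW-Blue rise of St3gal6 with SWNT/CpG, the K-Luc St3gal1 difference between SWNT/CpG and CpG+SWNT/LP, St6gal1 in both response differences between lines, and Cmas, Gne, St3gal2, St3gal6 and St8sia4 between untreated lines. The reversals were of St8sia4 in RAW-Blue: without untreated replicate 2 it was 0.44 with SWNT/CpG, 0.59 with CpG, 0.57 with CpG+SWNT/LP and 0.72 with SWNT/LP, and without untreated replicate 1 it was -0.60, -0.44, -0.47 and -0.32 in that order, so that the sign differed from that with all libraries in 4 of them. The cause of the changes that follow was not tested. With 2 or 3 libraries a group, each library weighs heavily, and low counts limit St6gal1 with SWNT/CpG in RAW-Blue and St8sia4 in K-Luc.

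Deviations of same-numbered libraries correlated at -0.10 to 0.18 in RAW-Blue and at -0.03 to 0.51 in K-Luc, so the numbers were not taken as a pairing. In RAW-Blue 4 of 20 such correlations were over 0.1, and in K-Luc 20 of 26 (median 0.20, against -0.09 for different numbers), a hint from the data and not the design. A replicate block changed 10 of the 170 calls, 9 gained and 1 lost. In K-Luc it gave 61 genes with SWNT/LP against untreated (main 16), 4009 genes and 4 members with SWNT/CpG against CpG+SWNT/LP (2194 and 1), 3610 and 2 with SWNT/CpG against CpG (1847 and 1), and 201 genes with CpG+SWNT/LP against CpG (33). In RAW-Blue it gave 2 genes for that last comparison (15).

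With only the compared groups in the fit, K-Luc had 2543 genes with CpG against untreated (4498), 2 with SWNT/LP (16), 3695 and 4 members with SWNT/CpG against CpG+SWNT/LP, 0 members against CpG, and 10 genes with CpG+SWNT/LP against CpG. RAW-Blue had 899 genes and 2 members with SWNT/CpG against untreated (2673 and 4), 125 and 1 with CpG (1241 and 2), 443 and 1 with CpG+SWNT/LP (2332 and 2), 1 and 0 with SWNT/LP (55 and 1), 832 genes with SWNT/CpG against CpG+SWNT/LP (95), 923 and 2 members against CpG (97 and 0), and 176 with CpG+SWNT/LP against CpG (15). The lines had 6541 genes untreated (10402), 1901 in the SWNT/CpG response (3392) and 571 in the CpG response (2926). DESeq2 gave 1 K-Luc member with SWNT/CpG against untreated and 0 against CpG, 33 K-Luc genes with SWNT/LP, 144 RAW-Blue genes with SWNT/LP, 245 with SWNT/CpG against CpG+SWNT/LP, 245 and 1 member against CpG, 47 with CpG+SWNT/LP against CpG, and 4 members in the CpG response of the lines. Its size factors in edgeR gave 2 K-Luc members with SWNT/CpG against CpG and 4 in the CpG response. No filter gave 27 K-Luc genes with SWNT/LP, 0 members with SWNT/CpG against CpG, and in RAW-Blue 117 genes with SWNT/LP, 249 with SWNT/CpG against CpG+SWNT/LP, 240 and 1 member against CpG, and 50 with CpG+SWNT/LP against CpG. Without the run term K-Luc had 15 genes with CpG+SWNT/LP against CpG and the lines 2 members in the CpG response. The second run alone gave 2043 genes with CpG+SWNT/LP against untreated, 5 with SWNT/LP, 1177 with SWNT/CpG against CpG+SWNT/LP and 5 with CpG+SWNT/LP against CpG. Ordered by CPM in place of RPKM, 3 of 10 members in K-Luc and 2 of 10 in RAW-Blue kept their place.

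Leaving out 1 library at a time, K-Luc had 2770 to 5854 genes and 0 to 5 members with SWNT/CpG against untreated, 1531 to 5172 and 0 to 3 with CpG, 1454 to 4871 and 0 to 3 with CpG+SWNT/LP, 0 to 27 genes with SWNT/LP, 1423 to 2808 and 1 to 2 with SWNT/CpG against CpG+SWNT/LP, 1091 to 2392 and 0 to 2 against CpG, and 4 to 47 genes with CpG+SWNT/LP against CpG. RAW-Blue had 1211 to 5951 and 2 to 5 with SWNT/CpG against untreated, 357 to 5186 and 1 to 5 with CpG, 967 to 5500 and 1 to 6 with CpG+SWNT/LP, 2 to 4207 and 0 to 4 with SWNT/LP, 2 to 1340 and 0 to 1 with SWNT/CpG against CpG+SWNT/LP, 0 to 1174 and 0 to 2 against CpG, and 0 to 334 genes with CpG+SWNT/LP against CpG. The lines had 8631 to 10594 and 7 to 8 untreated, 2019 to 4878 and 1 to 4 in the SWNT/CpG response, and 1301 to 4463 and 1 to 4 in the CpG response. Where 1 library was left in a group, it was assumed to vary like the other groups.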
